A study of Homo sapiens with 4 samples.

Results

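The genes of MHC class I antigen presentation were examined in ES-2 cells with and without depletion of MAML2 and of the YAP1-MAML2 (YM) fusion. The 9 genes were chosen by name, with earlier results of these data known, by a rule that uses no measured value: the heavy chain genes HLA-B, HLA-C, HLA-E and HLA-F, the light chain gene B2M, the transporter genes TAP1 and TAP2, the tapasin gene TAPBP and the regulator NLRC5. All 9 were among the 19626 genes of the deposited tables, and 7 of them passed the filter on expression level and were tested. ES-2 is an established human ovarian cancer line, labelled as clear cell carcinoma, that carries the YM fusion. Control cells (shCtl, n = 2 biological replicates) received lentivirus with a nontargeting shRNA, and YM/MAML2-depleted cells (shM2-3, n = 2) received lentivirus with 1 shRNA against MAML2. This shRNA acts on both the MAML2 and the fusion transcript, so the loss of one and of the other cannot be told apart. According to the labels both groups were infected on 2 consecutive days and RNA was taken 96 h after the first infection, while the study's methods give more days of infection and a shorter time to RNA isolation.

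MHC class I molecules are carried by nearly all nucleated cells and show short peptides from the inside of the cell to CD8+ T cells. Each consists of a heavy chain, encoded by an HLA gene, and the invariant light chain beta-2-microglobulin. Peptides cut by the proteasome are pumped into the endoplasmic reticulum by the TAP1-TAP2 transporter, and tapasin holds the empty heavy chain beside the transporter until a peptide fits. HLA-B and HLA-C present to T cells and also bind killer cell immunoglobulin-like receptors, while HLA-E mostly presents leader peptides of other class I chains to the NKG2A receptor of natural killer cells. NLRC5 is a coactivator that works on class I promoters together with RFX and NF-Y factors, and interferons raise class I genes through IRF and STAT factors.

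The promoters carry short motifs by which these factors are known to act, and they are shown here because the genes behind them did not move alike. Of the 9 genes, 7 had a promoter in the RefSeq table used (GRCh38.p14, the hg38 build), and HLA-E and NLRC5 are named only. The 250 bases before each transcription start were searched on both strands for AANNGAAA (the core bound by IRF factors), GGGNNTTNC (a kappaB-like motif), CCAAT (bound by NF-Y) and TGACG (a CRE-like element of CREB and ATF factors). Each stretch below runs from 10 bases before the first match to 10 bases after the last, within these 250 bases, 5′ to 3′ in the direction of transcription, and capitals mark the matches.
HLA-B, chr6:31357221-31357366, minus strand: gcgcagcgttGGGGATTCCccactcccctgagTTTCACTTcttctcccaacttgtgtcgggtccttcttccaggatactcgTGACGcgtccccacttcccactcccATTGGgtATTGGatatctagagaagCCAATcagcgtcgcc
HLA-C, chr6:31272134-31272294, minus strand: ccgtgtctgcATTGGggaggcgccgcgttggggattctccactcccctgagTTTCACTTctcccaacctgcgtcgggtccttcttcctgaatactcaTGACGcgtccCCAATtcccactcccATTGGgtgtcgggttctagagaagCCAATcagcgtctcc
HLA-F, chr6:29723268-29723391, plus strand: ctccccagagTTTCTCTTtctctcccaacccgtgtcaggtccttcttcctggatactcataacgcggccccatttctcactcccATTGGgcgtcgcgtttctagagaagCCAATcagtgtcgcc
B2M, chr15:44711365-44711482, plus strand: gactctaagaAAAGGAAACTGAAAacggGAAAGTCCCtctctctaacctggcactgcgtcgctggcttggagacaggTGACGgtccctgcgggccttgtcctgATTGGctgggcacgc
TAPBP, chr6:33314079-33314144, minus strand: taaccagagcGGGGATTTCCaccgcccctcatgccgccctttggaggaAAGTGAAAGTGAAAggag
TAP1, chr6:32853758-32853954, minus strand: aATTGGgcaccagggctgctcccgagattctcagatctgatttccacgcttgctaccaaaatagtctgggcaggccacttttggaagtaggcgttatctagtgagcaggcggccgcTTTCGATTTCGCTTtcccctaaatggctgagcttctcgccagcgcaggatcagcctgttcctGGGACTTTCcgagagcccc
TAP2, chr6:32838760-32838811, minus strand: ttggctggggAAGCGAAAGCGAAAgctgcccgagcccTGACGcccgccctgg

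All 7 promoters held the IRF core, which 20.3% of the 35116 promoters in the table held. The kappaB-like letters were found in 4 of 7 (HLA-B, B2M, TAPBP and TAP1) against 14.2% of all promoters. CCAAT was found in 5 of 7 against 32.0%, and TGACG in 4 of 7 (HLA-B, HLA-C, B2M and TAP2) against 21.2%. In B2M, TAPBP, TAP1 and TAP2 the IRF core occurred as a pair of matches that overlapped each other, and the kappaB-like letters of TAPBP did so too. In HLA-B and HLA-C the IRF core, at positions -155 and -151 from the start of transcription, was followed by TGACG and then by CCAAT, the last of them at -56 in each. HLA-F had the IRF core and its last CCAAT at nearly the same places, -156 and -57. For TAP1 the table holds 2 promoters, of which the first is shown and the second held none of the motifs. A match is a string of letters and no measured binding. The stretches of TAP1 and of TAPBP both held the IRF core and the kappaB-like letters. Whether any of these motifs bears on the changes in expression below was not tested.

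**Figure D1:**
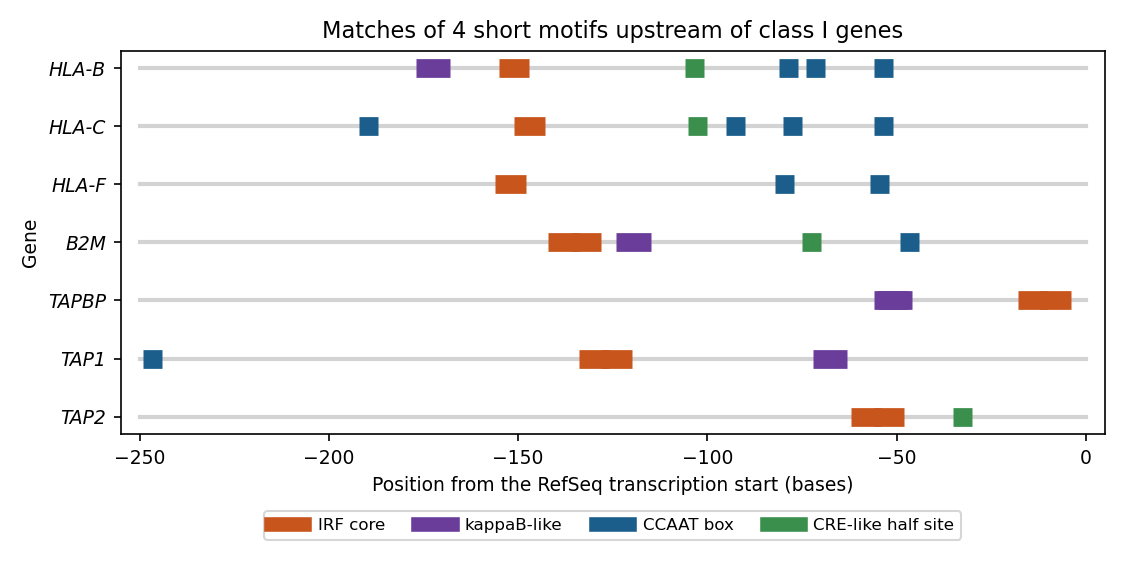
Matches of 4 motifs in the 250 bases before the RefSeq transcription start of 7 class I genes (x axis, bases from the start; 1 line per gene, coloured blocks are matches on either strand). The IRF core is present in all 7 genes, at -155 and -151 in HLA-B and HLA-C and at -18 and -12 in TAPBP.

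Expression was read from estimated counts per gene and from RPKM, counts scaled by transcript length and mapped reads, the scale used here whenever levels of different genes are compared. Library totals lay between 20051083 and 23978660 counts. In the control cells B2M had the highest level of the 9 genes, with an RPKM of 386 ± 13.3 (SD, n = 2), above 99.1% of all tested genes. HLA-C followed at 136 ± 8.00 (SD, n = 2), then HLA-E at 94.0 ± 1.74 and HLA-B at 35.4 ± 5.43 (SD, n = 2 each). TAPBP, at 33.6 ± 0.552 (SD, n = 2), lay between the values of the HLA-B replicates, so the order of these neighbours is not settled. TAP1, at 10.5 ± 0.0826, and TAP2, at 6.93 and 7.07, stood near the middle of the tested genes. NLRC5 (0.611 ± 0.0472) and HLA-F (0.125 ± 0.00148) stayed under an RPKM of 1 in every library. In shM2-3 cells TAPBP and HLA-B, at 81.6 ± 1.60 and 65.6 ± 4.50, stood above HLA-E, at 47.7 ± 0.500 (SD, n = 2 each).

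**Figure D2:**
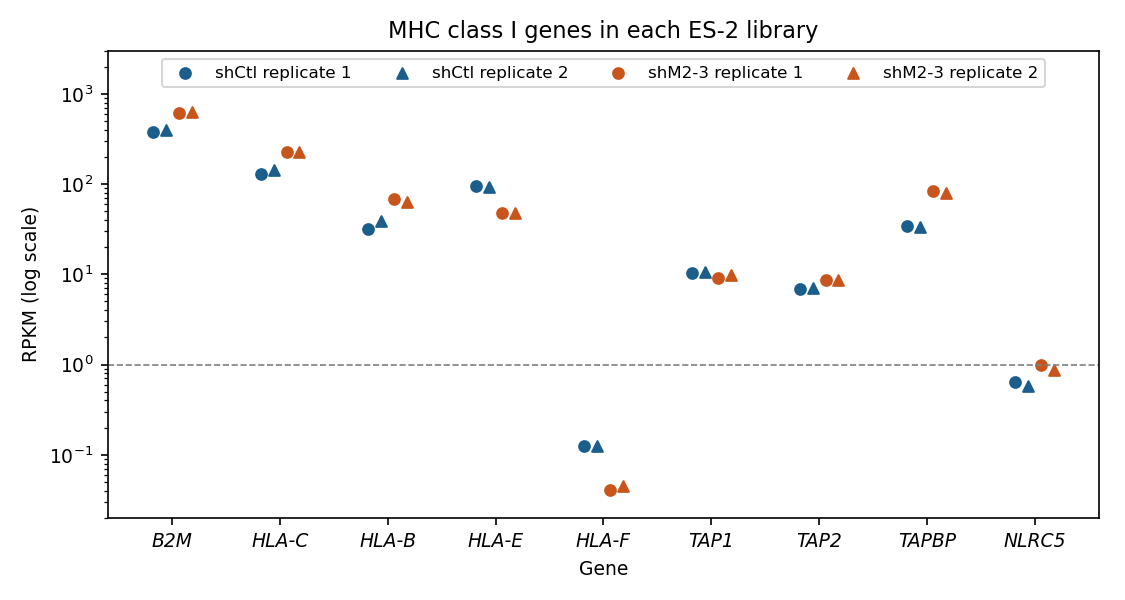
RPKM (log scale) of the 9 class I genes in each of the 4 libraries; circles are replicate 1 and triangles replicate 2, and the dashed line marks an RPKM of 1. B2M, HLA-C, HLA-B and TAPBP are higher in both shM2-3 libraries, HLA-E is lower in both, and HLA-F and NLRC5 stay under the line.

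Most of the tested class I genes differed between shM2-3 and shCtl cells, in more than one direction. By edgeR's quasi-likelihood test, 5 of 7 rose (TAPBP, HLA-B, HLA-C, B2M and TAP2), 1 fell (HLA-E) and TAP1 did not pass, where passing means p no higher than 0.05 after Benjamini-Hochberg adjustment over 12157 genes. Of all tested genes, 36.3% rose and 36.4% fell by that rule. Only TAPBP also reached a fold change of 2, the limit for a called gene, where 9.24% of all tested genes were called higher and 8.93% called lower. The median log2 fold change was 0.74 over the 7 members and -0.0037 over all tested genes. Since the RNA came from whole cultures, more RNA per cell and more cells with that RNA cannot be told apart. MAML2, the target, was at an RPKM of 8.44 ± 0.243 in shCtl and 3.05 ± 0.0776 in shM2-3 (SD, n = 2 each). Its log2 fold change was -1.40 (adjusted p = 5.18e-10 from edgeR). The fusion contains part of MAML2, so reads counted for MAML2 can come from either transcript, and the fusion was not measured separately.

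The light chain and the classical heavy chains rose together. B2M (chromosome 15 of hg38, 44711358 to 44718851 in GENCODE v44, plus strand) had an RPKM of 377 and 396 in shCtl and of 609 and 621 in shM2-3. Both depleted libraries stood well above both controls, and the log2 fold change was 0.74 (standard error 0.0376, adjusted p = 7.88e-10 from edgeR). HLA-C (chromosome 6, 31268749 to 31272130, minus strand) went from 130 and 142 to 225 and 228. Its replicates did not overlap between groups either, a log2 difference of 0.80 (standard error 0.0453, adjusted p = 2.34e-09 from edgeR). HLA-B (chromosome 6, 31353872 to 31367067, minus strand) went from 31.6 and 39.2 to 68.8 and 62.5, on 1136 and 1436 counts against 3029 and 2489. It was the least even of the 3 between replicates, at 0.96 on the log2 scale (standard error 0.0798, adjusted p = 1.3e-07 from edgeR), a fold of 1.94. HLA-B would be called with 1.12 without shCtl replicate 2 or 1.02 without shM2-3 replicate 2, while it was 0.81 without shCtl replicate 1.

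HLA-E moved the other way. HLA-E (chromosome 6, 30489509 to 30494194, plus strand), the ligand of NKG2A, had an RPKM of 95.2 and 92.8 in shCtl and of 47.3 and 48.0 in shM2-3. The groups lay far apart and the replicates close together, and the log2 difference was -0.91 (standard error 0.0429, adjusted p = 3.27e-10 from edgeR). Its 95% interval, -1.01 to -0.82, just includes a fold change of 2. HLA-F (chromosome 6, 29722775 to 29738528, plus strand), a non-classical chain, was near 0: 5 reads were counted in each control library and 2 in each depleted one. These are too few for a fold, and in a fit without the filter it did not pass (adjusted p = 0.453 from edgeR over 19626 genes).

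Per transcript length, the make-up of the heavy chain RNA shifted from HLA-E to HLA-C. Of the summed RPKM of HLA-B, HLA-C and HLA-E, HLA-E held 37.0% and 33.9% in shCtl and 13.9% and 14.2% in shM2-3. HLA-C held 50.7% and 51.8% in shCtl and 65.9% and 67.3% in shM2-3, and HLA-B went from 12.3% and 14.3% to 20.2% and 18.5%. HLA-E thus held the second largest share in shCtl and the smallest in shM2-3. The summed RPKM of the 3 genes was 257 and 274 in shCtl and 341 and 338 in shM2-3. Set against the light chain, the ratio of HLA-C to B2M moved little, 0.346 and 0.358 in shCtl and 0.369 and 0.367 in shM2-3. The ratio of HLA-E to B2M went from 0.253 and 0.234 to 0.0777 and 0.0774. These ratios are within-library descriptions, since 2 libraries against 2 allow no two-sided exact permutation p under 0.333.

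**Figure D3:**
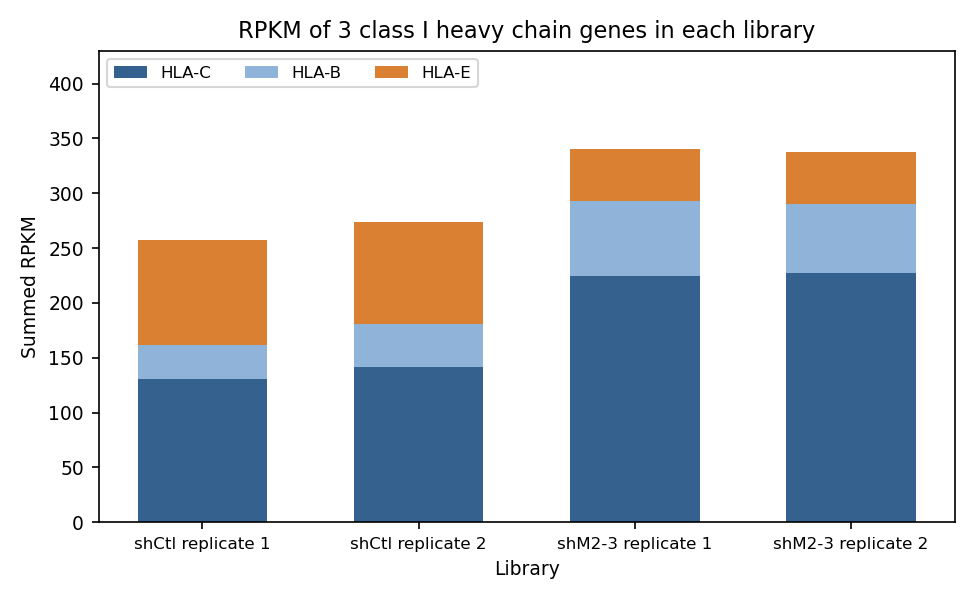
Summed RPKM of HLA-C, HLA-B and HLA-E in each library (stacked bars, y axis from 0). The HLA-E segment is 95.2 and 92.8 in shCtl and 47.3 and 48.0 in shM2-3, while the HLA-C and HLA-B segments are larger in both shM2-3 libraries.

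The heavy chain genes resemble each other, which bears on how their reads were assigned. In the reference the coding sequences of HLA-B and HLA-C were 91.5% identical, HLA-B and HLA-E 85.6%, and HLA-C and HLA-E 85.0%. No stretch of 150 bases, the read length, in the canonical GENCODE transcript of HLA-B, HLA-C, HLA-E or HLA-F was found unchanged in a transcript of another gene. Over 75 bases, 1.98% of the HLA-C stretches and 2.30% of the HLA-E stretches were shared and none of HLA-B or HLA-F. Both searches took exact matches in reference sequences. The alleles of ES-2 and reads aligned with mismatches were not examined. The authors removed ambiguous reads, the levels of the heavy chain genes are therefore uncertain, and the part of shared sequence in their fold changes was not tested.

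The transporter genes moved little, and not alike. TAP1 (chromosome 6, 32845209 to 32853816, minus strand) had an RPKM of 10.4 and 10.5 in shCtl and of 9.19 and 9.77 in shM2-3. Its log2 fold change was -0.08 with a 95% interval of -0.24 to 0.09 (adjusted p = 0.379 from edgeR), which leaves out a change of 2-fold in either direction. TAP2 (chromosome 6, 32821833 to 32838739, minus strand) had 6.93 and 7.07 in shCtl and 8.57 and 8.61 in shM2-3. Here the groups were clearly apart but close, by 0.36 on the log2 scale (standard error 0.0607, adjusted p = 0.000117 from edgeR). The RPKM ratio of TAP1 to TAP2 was 1.07 and 1.13 in shM2-3 and higher in both control libraries, so that the 2 transporter subunits came closer in level. Reads on these genes can have other sources: TAP1 overlaps PSMB9 and PSMB8-AS1 on the other strand in GENCODE, the libraries carry no strand, and 34.1% of 150-base stretches of TAP2 also lie in a transcript of an overlapping annotated gene on the same strand.

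Tapasin had the largest change of the 7 tested members. TAPBP (chromosome 6, 33299694 to 33314284, minus strand) had an RPKM of 34.0 and 33.2 in shCtl and of 82.7 and 80.4 in shM2-3, from 3253 and 3232 to 9665 and 8510 counts. Its replicates differed little beside the difference between the groups, which was 1.34 on the log2 scale (standard error 0.0417, adjusted p = 4.25e-12 from edgeR), a fold of 2.54. The RPKM of TAPBP was 3.27 and 3.16 times that of TAP1 in shCtl and at least 8.23 times in shM2-3.

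NLRC5 (chromosome 16, 56989485 to 57083531, plus strand) was low throughout: 102 and 93 reads were counted in the control libraries and 190 and 154 in the depleted ones. Its RPKM of 0.644 and 0.577 against 0.981 and 0.878 never passed 1, so that it was not among the tested genes. Both depleted libraries were higher, and without the filter its log2 fold change was 0.64 (standard error 0.191, adjusted p = 0.00187 from edgeR over 19626 genes).

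Beyond the 9 genes, 79 of 87 listed genes of the wider pathway were in the tables and 62 were tested. Of these 33 rose, 15 fell, 9 were called higher and 3 called lower, and the median log2 fold change was 0.27. Over all tested genes these shares were 36.3% and 36.4%, and 9.24% and 8.93%.

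Among 9 genes of peptide trimming, folding and loading in the endoplasmic reticulum, 5 rose and 4 fell, with a median of 0.34. The shares over all tested genes were 36.3% and 36.4%. TAPBPL, the tapasin-related editor TAPBPR, went from an RPKM of 1.72 and 2.24 to 7.42 and 7.26, a called log2 fold change of 1.96 (standard error 0.147). ERAP1, the aminopeptidase that trims peptides in the endoplasmic reticulum, went from 9.45 and 8.90 to 27.7 and 27.7 and was called with 1.66 (standard error 0.0472). Its relative ERAP2 rose by 0.93, short of the limit. HM13, the signal peptide peptidase that frees leader peptides of the kind HLA-E binds, and UGGT1, which re-glucosylates misfolded glycoproteins, each rose by 0.34. CANX (calnexin), which folds newly made heavy chains, went from an RPKM of 276 and 265 to 104 and 107, a called change of -1.29 (standard error 0.0383). CALR (calreticulin) fell by 0.35, BCAP31, an export receptor of the endoplasmic reticulum, fell by 0.30, and PDIA3 (ERp57) fell by 0.13. CALR and PDIA3 sit with tapasin in the loading complex, and both remained among the most abundant transcripts, with an RPKM of 754 ± 20.3 and 281 ± 2.83 (SD, n = 2) in shM2-3. The adjusted p in this group ranged from 1.67e-12 for ERAP1 to 0.0037 for PDIA3 (edgeR).

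Of 10 genes that make or destroy cytosolic peptides, 5 rose, 3 fell and 1 was called, PSMB10, at a median of 0.08. Over all tested genes 36.3% rose, 36.4% fell and 9.24% were called higher. PSMB8, PSMB9 and PSMB10 encode the catalytic subunits that replace PSMB5, PSMB6 and PSMB7 in the immunoproteasome. PSMB10 went from an RPKM of 10.3 and 9.38 to 21.6 and 23.5 (log2 fold change 1.26, standard error 0.109) and PSMB9 from 6.55 and 7.02 to 11.5 and 10.8 (0.78, standard error 0.137). PSMB8, at 17.4 and 17.0 in shCtl and 14.4 and 15.7 in shM2-3, did not pass the test (adjusted p = 0.193 from edgeR). Of the 3 standard subunits 2 fell, at a median of -0.15, with PSMB6 lowest at -0.55 and PSMB7, which did not pass, highest at -0.12. The RPKM ratio of PSMB10 to PSMB7 went from 0.134 and 0.133 to 0.337 and 0.359, and that of PSMB9 to PSMB6 from 0.0576 and 0.0617 to 0.158 and 0.142. That of PSMB8 to PSMB5 was 0.313 and 0.310 against 0.323 and 0.312, so the immunoproteasome subunits did not move alike. The proteasome activator genes PSME1 and PSME2 rose by 0.42 and 0.54, and NPEPPS, a cytosolic aminopeptidase, rose by 0.29. The cytosolic peptidases THOP1, NRDC and BLMH fell by 0.56, 0.49 and 0.48, while TPP2 was at -0.17 (adjusted p = 0.0517 from edgeR). TAP1 and PSMB9 are read in opposite directions from RefSeq starts 488 bases apart on chromosome 6, and their log2 fold changes were -0.08 and 0.78.

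Among 12 tested regulators of class I promoters, 8 rose, 1 fell and only IRF1 was called, with a median of 0.28, beside 36.3% of all tested genes that rose, 36.4% that fell and 9.24% that were called higher. IRF1, an interferon-induced activator, had an RPKM of 3.15 and 3.35 in shCtl and of 14.7 and 14.1 in shM2-3 (log2 fold change 2.21, standard error 0.0744). Of the RFX complex that NLRC5 works with, RFXANK rose by 0.73 and RFX5 by 0.42, and RFXAP was at -0.02 with a 95% interval of -0.56 to 0.52. Of the NF-Y subunits, which bind CCAAT, NFYA rose by 0.73, while NFYB at -0.17 and NFYC at 0.24 did not pass. CCAAT stood in the HLA-B, HLA-C, HLA-F, B2M and TAP1 stretches above, and TGACG in those of HLA-B, HLA-C, B2M and TAP2. The TAPBP stretch held neither. ATF1 and CREB1, whose kind bind TGACG, rose by 0.52 and 0.25. Whether these factors or the NF-Y subunits act on these promoters was not tested. IRF2 rose by 0.32 and NFKB1 by 0.21, and RELA, the main activating NF-kB subunit, fell by 0.19. CIITA, the class II counterpart of NLRC5, stayed at an RPKM of 0.262 or less and was not tested.

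**Figure D4:**
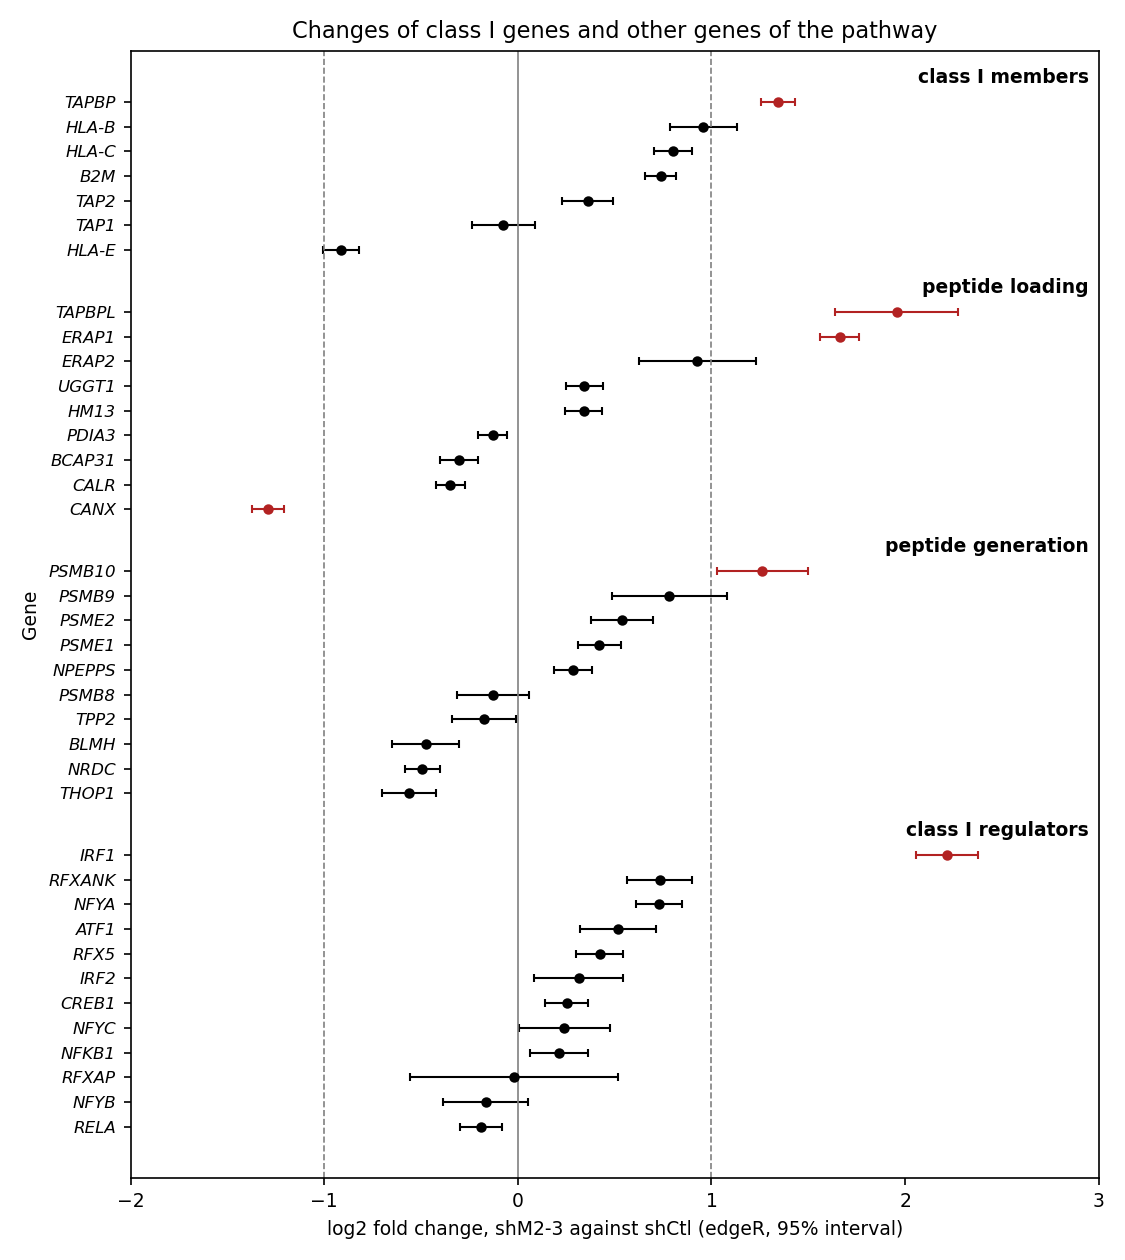
Log2 fold change of shM2-3 against shCtl for the 7 tested class I genes and for the tested genes of 3 pathway lists (points; bars are 95% intervals from edgeR; dashed lines mark a fold change of 2; red points were called). TAPBP is the highest member at 1.34 and HLA-E the lowest at -0.91, and IRF1 at 2.21 and CANX at -1.29 are the outermost of the other genes.

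Of 10 tested genes in the list of interferons, their receptors and the kinases and factors that signal from them, 6 rose, none fell and 3 were called higher, at a median of 0.46, where 36.3% of all tested genes rose, 36.4% fell and 9.24% were called higher. IFNGR2, a chain of the interferon-gamma receptor, rose most, from an RPKM of 18.7 and 18.3 to 50.0 and 47.7 (log2 fold change 1.47, standard error 0.0524). IFNAR1 and IRF9, the other two called genes, had 1.11 and 1.28 and were named after their values had been seen. JAK2 was lowest at -0.05 and did not pass, nor did the receptor genes IFNAR2 and IL10RB, each at 0.16. Of the interferon genes in the list, IFNL1 had no count in 3 libraries and 6 counts in shM2-3 replicate 2, and IFNB1, IFNG, IFNL2 and IFNL3 were not analysed here.

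Genes that act on class I molecules after synthesis, or that resemble them, went both ways. TMEM127, which joins SUSD6 and the ligase WWP2 in an adaptor complex that lowers surface class I, rose from an RPKM of 5.29 and 3.61 to 12.1 and 13.5 (log2 fold change 1.59, standard error 0.121). In the same list of 7 tested turnover genes 4 rose and 2 fell, and MARCHF9, a membrane ubiquitin ligase of class I, was lowest, at -0.92 (standard error 0.0979). Of 8 tested class I-like genes 4 rose and 3 fell. Beside these lists, 36.3% of all tested genes rose and 36.4% fell, with 9.24% called higher and 8.93% called lower. FCGRT, the heavy chain of the neonatal Fc receptor, which also pairs with beta-2-microglobulin, was highest at 1.66 (standard error 0.213), with an RPKM of 1.67 and 1.29 against 4.23 and 4.70. PROCR, the endothelial protein C receptor, was lowest at -1.95 (standard error 0.0761), and ULBP3, a ligand of the activating receptor NKG2D that was named after its value had been seen, was also called lower, at -1.63.

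Class II genes, which mark professional antigen-presenting cells, were low. Of 11 with a row, 3 passed the filter, with a median of 0.69, between HLA-DPA1 at -0.40 and HLA-DMA, a class II peptide loading chain, at 0.77. HLA-DMA rose, and none of the 3 was called, beside 9.24% of all tested genes called higher and 8.93% called lower. HLA-DRA, the alpha chain of HLA-DR, had at most 8 counts in any library. The summed RPKM of 6 antigen-presenting cell markers was between 2.26 and 2.78 in shCtl and between 2.71 and 2.72 in shM2-3. The 4 leukocyte markers in the tables summed to between 0.524 and 1.04 in shCtl and to between 1.01 and 3.27 in shM2-3. PTPRC, the defining marker, was at 0.0173 or less. CD14 was at 0.0898 ± 0.0171 in shCtl and 0.878 ± 0.0170 in shM2-3 (SD, n = 2 each). LYZ was uneven between replicates, at 0.945 and 0.423 in shCtl and 2.34 and 0.129 in shM2-3, and did not pass the test. The 4 fibroblast markers summed to between 0.202 and 0.519 over the 4 libraries. Of the 3 endothelial markers, CDH5 was called lower (RPKM 9.66 to 4.10 on average) and PECAM1 called higher (0.0342 to 1.12), and VWF stayed at 0.0855 or less. The part of other cell types in the class I values was not tested. Of the labelled tissue, KRT7, KRT8 and KRT18 were abundant and fell (KRT7 and KRT8 were called lower), whereas PAX8, EPCAM and the clear cell marker NAPSA were under an RPKM of 1 in all libraries.

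Outside all lists, the genes nearest to the mean profile of the 7 tested members over the 4 libraries, by distance between centred log2 counts scaled to library size, were CHMP4B, WARS1 and RHOBTB2, at 0.00873, 0.00881 and 0.0176. CHMP4B encodes a subunit of the membrane-cutting ESCRT-III complex and WARS1 the tryptophanyl-tRNA synthetase. Their log2 fold changes were 0.47, 0.45 and 0.46, which follows from how they were picked. The members themselves ran from -0.91 (HLA-E) to 1.34 (TAPBP) around that mean, and shared regulation was not tested.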

How the data were processed

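RNA-seq of ES-2 cells was analysed (2 shCtl and 2 shM2-3 libraries, paired ends of 150 bases, no strand). According to the study's methods and the submitters' processing notes, the authors aligned reads to hg38 with HISAT2 2.0.4, removed ambiguous reads and reads of low mapping quality, and made the deposited estimated counts per gene with Partek 7.18. They are not normalized, and whole numbers make up 42.4% to 48.6% of a library's values. The deposited RPKM values scale them by length and mapped reads. The replicates are called biological, with no word on separate cultures, so p-values measure only the spread between these samples.

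Here counts were rounded (the design had assumed whole counts) and fitted for the 12157 genes whose RPKM passed 1 in any library in R 4.3.3 with edgeR 4.0.16 (TMM, glmQLFit and glmQLFTest, no block). A gene rose or fell where its p, adjusted by Benjamini-Hochberg, was no higher than 0.05, and was called with a fold change of 2 or more in addition. Standard errors are the log2 fold change divided by the square root of F. The fit was tested on simulated counts. Alternatives used DESeq2 1.42.0, limma 3.58.1 on log2(RPKM + 1) and log2(RPKM + 0.1), total counts, other filters, the replicate number as block, and fits leaving out 1 library at a time. Positions and transcripts are from GENCODE v44.

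The members and gene lists were chosen with earlier results of these data known. Named were all members, MAML2, every tested gene of the loading, peptide generation and regulator lists, the lowest and highest of each other list, and the 3 genes with the nearest profiles. Marker genes and genes said to be named after their values were seen are in addition. Some genes of the lists are not reported here and enter none of their counts.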

Additional observations from a re-analysis of the deposited data

How the results depend on the processing

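Directions of the 7 tested members and of MAML2 held under each of the 11 alternatives that refitted them, and calls changed for HLA-B alone, in 2 of 11. TAP1 stayed above an adjusted p of 0.05 throughout (edgeR, DESeq2 and limma, 0.0764 to 0.843). With a fold change limit of 1.5 in place of 2, 4 members were called higher and 1 lower (HLA-B, HLA-C, B2M and TAPBP against HLA-E), with 16 and 5 genes of the pathway lists and 2296 and 2302 of all tested genes. Leaving out 1 library gave between 1 and 2 members called higher, the second being HLA-B without shCtl replicate 2 or shM2-3 replicate 2. In such a fit the lone library of a group is assumed to vary like the others. Without the RPKM filter 5 genes of the pathway lists were called lower in place of 3, more genes being tested. With limma on log2(RPKM + 1), 596 of all tested genes were called higher and 724 lower, in place of 1123 and 1086. With limma on log2(RPKM + 0.1) these were 953 and 1175, and the cause of the differences was not tested. The replicate block gave 1 member called higher and 0 lower, as without it. Replicates with the same number did not deviate together (Pearson r 0.0181 across 12478 genes), and nothing in the labels pairs them. Depth limits HLA-F, with 5 counts or fewer in each library. NLRC5, whose value rests on 93 to 190 counts, was left out of the main fit by its RPKM and not by its counts.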
